A study of Mus musculus with 60 samples.

Results

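The step from 100 to 200 mg/kg BIO 300 was examined in whole blood on Day 1 by setting the 6 unirradiated mice of the BIO300-High group (200 mg/kg, animals 43 to 48) directly against the 6 of the BIO300-Med group (100 mg/kg, animals 37 to 42). These 12 of the 60 mice in the series were taken by their group labels, and their raw counts were joined by gene identifier over 49315 genes. BIO 300 holds synthetic genistein as an amorphous solid dispersion, and genistein is a soy isoflavone that binds estrogen receptors and is developed as a radiation countermeasure. All mice were male CD2F1, 5 to 6 weeks old when purchased, dosed BID by oral gavage for 6 days and bled once from the inferior vena cava into PAXgene tubes, here 48 h after the last dose. Mice given the vehicle alone or 50 mg/kg (BIO300-Low) and bled on the same day, and mice of the 100 and 200 mg/kg groups bled on Day 0, or 24 h from the final dose, served for reference. The labels name doses only as low, medium and high, and the amounts come from the study's methods. Those methods describe stranded total RNA libraries after removal of globin and ribosomal RNA, but the labels name poly(A) selection, and which was used bears on every RNA below that has no poly(A) tail.

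Whole blood RNA comes mostly from reticulocytes, platelets and leukocytes. Reticulocytes keep globin and heme enzyme transcripts and lose their mitochondria as they mature. Mitochondrial RNA also comes from the other cells of blood, so it is not a reading of reticulocytes alone. Mitochondrial DNA codes for 13 subunits of the respiratory chain and the 22 transfer RNAs that translate them, while all other respiratory subunits and the mitochondrial ribosome are coded in the nucleus. In bulk blood, fewer cells of a type and less RNA per cell cannot be told apart.

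No gene passed the test of the dose step in the fit of 12 mice. edgeR's quasi-likelihood test called 0 of 19942 genes (0%), with an adjusted p under 0.05 and a change over 1 on the log2 scale required in either direction, and the smallest adjusted p was 0.999. At an unadjusted p under 0.05 there were 725 genes (3.64%), 312 of them higher (1.56%) and 413 lower (2.07%) at 200 mg/kg. DESeq2 and limma-voom also called 0 genes, with 582 and 1063 at an unadjusted p under 0.05. The log2 fold change was above 0 in 10125 genes (50.8%) and below 0 in 9817 (49.2%), with a median of 0.01 over all genes tested. Scaling by total counts in place of TMM moved that median to -0.13 and the split at an unadjusted p under 0.05 to 167 higher and 722 lower. Against the vehicle, in 1 fit of the 24 Day 1 mice, 9087 genes (45.6%) were called at 100 mg/kg and 8940 (44.8%) at 200 mg/kg, but 1 (0.00501%) at 50 mg/kg. These counts and the fold changes against the vehicle below rest on TMM scaling, under which all genes had medians of -0.04 and -0.19 for the 100 and 200 mg/kg groups. On total counts the medians were -1.45 and -1.68, with 12254 and 12725 genes called. The split at an unadjusted p under 0.05 was 6437 higher and 7299 lower with TMM at 100 mg/kg and 5963 and 7576 at 200 mg/kg, but 1948 and 13008, and 1703 and 13531, on total counts. Genes are ordered below by edgeR's unadjusted p, which called none of them. The edgeR adjusted p in the Day 1 step of 12 mice was 0.999 or above for each gene.

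Total counts ran from 17187608 to 45589415, and neither they nor the number of genes detected nor the TMM factor separated the groups by a 2-sided exact permutation test (adjusted p of 0.9, 0.419 and 0.419). Some libraries held transcripts of liver and fat, tissues that are not part of blood. Alb, the plasma albumin of hepatocytes, reached 1002.5 CPM (counts scaled to library size, on the TMM scale) in mouse 37, 68.2 in mouse 39 and 5.40 in mouse 41 of the 100 mg/kg group, and 269 in mouse 43 and 18.8 in mouse 45 of the 200 mg/kg group. It was at or under 0.115 CPM in the other 7 mice. Over 16 hepatocyte markers, the mean log2(CPM + 1) was 0.80 to 6.80 in those 5 mice and 0.06 to 0.22 in the rest. Fabp4, a fatty acid carrier of adipocytes, was highest in mice 39 (84.5 CPM), 41 (45.3) and 43 (14.2), and the level over 8 adipocyte markers ran from 0.95 to 4.93 in the 100 mg/kg group and from 0.26 to 3.16 in the 200 mg/kg group. The median log2 fold change was -1.71 for the hepatocyte and -1.79 for the adipocyte markers, with all 16 and all 8 below 0 and 1 at an unadjusted p under 0.05, but without mouse 37 the hepatocyte median was 1.82. All 5 mice with liver transcripts had odd numbers, so after these values were seen the step was also fitted in the 6 odd-numbered and the 6 even-numbered mice separately, and without mice 37, 39, 41 and 43. What odd numbers mark is not stated in the labels. As a term beside dose, odd or even number had 425 of 19942 genes at an edgeR adjusted p under 0.05, 309 of them higher in odd-numbered mice. The 425 held 7 of the 16 hepatocyte markers and 0 of the mitochondrially encoded subunits and transfer RNAs. The term fits the same odd-even difference at both doses. In mean log2(CPM + 1), both mitochondrial classes were higher in the odd-numbered mice of the 100 mg/kg group. Within the 200 mg/kg group they tended to be lower in odd-numbered mice. Opposite differences cancel in this term, so its 0 cannot show whether these RNAs differed between odd and even numbers.

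Among the classes made in blood cells, mitochondrially encoded RNAs had the lowest fold changes at 200 mg/kg. Of the 13 subunit genes 12 were tested, and all 12 had a log2 fold change below 0, with a median of -0.85, against 49.2% of all genes below 0 and a median of 0.01. Of these, 7 were lower at an unadjusted p under 0.05, against 2.07% of all genes. The 18 transfer RNAs tested of 22 all lay below 0 too, with a median of -1.25, and 12 were lower at that p. Since the mitochondrial genome is transcribed from both strands as long precursors, neighbouring genes are not independent readings. The 2 mitochondrial ribosomal RNAs are not analysed here.

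mt-Nd1, a core subunit of complex I (chrM:2751-3707), had 755.5, 374.5, 1339.9, 464, 654 and 409 CPM in mice 37 to 42, and 273, 304, 319.7, 542.5, 234 and 386.5 CPM in mice 43 to 48. Mice 37, 39 and 41 were the 3 highest of all 12, and the groups overlapped. The log2 fold change was -0.96 ± 0.30 (standard error). mt-Cytb, the cytochrome b of complex III (chrM:14145-15288), was also highest in mice 39, 41 and 37, ran from 533 CPM in mouse 38 to 2035 CPM in mouse 39 at 100 mg/kg, and lay between 464 and 769 CPM at 200 mg/kg. Its log2 fold change was -0.89 ± 0.29. mt-Nd2 stood at -1.12 ± 0.35, mt-Nd5 at -0.81, mt-Nd4 at -0.75 and mt-Nd6, coded on the other strand, at -0.65. mt-Co1, the catalytic subunit of cytochrome oxidase (chrM:5328-6872), was the exception among the abundant subunits. It had the highest level per length, 3214 CPM per kb over the 12 mice against 707 for mt-Cytb, 527 for mt-Nd1 and 204 for mt-Nd2. It ranged from 3409 to 6657 CPM at 100 mg/kg and from 3531 to 5796 CPM at 200 mg/kg, and its log2 fold change was -0.08 ± 0.22. mt-Co2, mt-Co3, mt-Atp6, mt-Nd3 and mt-Nd4l stayed under 6 CPM in every mouse, and their reads may be shared with near-identical nuclear copies, so their values are uncertain. They are among the 12 subunits below 0, and mt-Co2 and mt-Nd3 are among the 7 lower at an unadjusted p under 0.05.

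**Figure D1:**
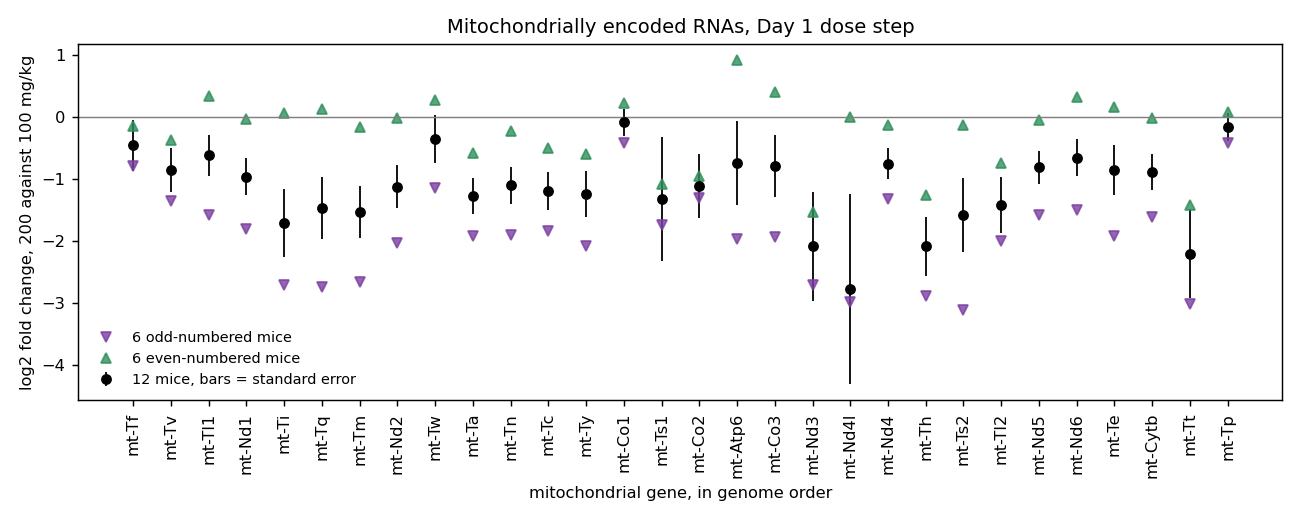
Log2 fold changes of mitochondrially encoded RNAs for 200 against 100 mg/kg on Day 1, with genes in genome order on the horizontal axis. Black points with standard errors are the fit of 12 mice and all lie below 0, purple triangles the fit of the 6 odd-numbered mice and green triangles that of the 6 even-numbered mice, which lie near 0 for the abundant subunits.

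The transfer RNAs gave the smallest p of the mitochondrial genes. The sequences of mt-Ta, mt-Th and mt-Tp are shown with the anticodon in capitals, read from the GENCODE transcripts on GRCm38. Within the class mt-Ta had the smallest p, mt-Th the next smallest and mt-Tp the fold change nearest 0. They lie at chrM:5018-5086 (minus strand), chrM:11546-11612 (plus strand) and chrM:15356-15422 (minus strand).
mt-Ta: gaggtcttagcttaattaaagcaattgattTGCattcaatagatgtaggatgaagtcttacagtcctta
mt-Th: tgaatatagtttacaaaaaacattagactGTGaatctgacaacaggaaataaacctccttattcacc
mt-Tp: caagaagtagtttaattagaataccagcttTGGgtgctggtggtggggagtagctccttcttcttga
mt-Ta, the alanine transfer RNA, had 4.62, 1.955, 6.02, 3.03, 4.23 and 2.78 CPM at 100 mg/kg and 1.72, 2.26, 1.61, 1.53, 0.798 and 1.43 CPM at 200 mg/kg. Apart from mouse 38 every mouse at 100 mg/kg lay above every mouse at 200 mg/kg. Its log2 fold change was -1.27 ± 0.29. mt-Th, the histidine transfer RNA, had 0.898 to 5.34 CPM at 100 mg/kg (median 1.77) and 0.226 to 0.928 CPM at 200 mg/kg (median 0.4865), with a log2 fold change of -2.08 ± 0.48. Mouse 42, the lowest at 100 mg/kg, fell within the 200 mg/kg range. mt-Tp, the proline transfer RNA and the most abundant of the class, had 15.8 to 41.8 CPM and 17.5 to 38.5 CPM and stood at -0.16 ± 0.23. mt-Tl1, a leucine transfer RNA, stood between them at -0.61 ± 0.33. mt-Th was chosen after its values were seen.

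The respiratory subunits coded in the nucleus were read beside these. Nuclear complex I genes had a median of -0.30 over 36 genes, 31 of them below 0 and 7 lower at an unadjusted p under 0.05. Over all genes 49.2% were below 0 and 2.07% were lower at that p. Ndufc1, a small accessory subunit, had 1.21 to 6.09 CPM at 100 mg/kg and 0.737 to 1.99 CPM at 200 mg/kg, with a log2 fold change of -1.08 ± 0.38. Complexes II and III had a median of -0.48 over 14 genes, 12 of them below 0 and 3 lower at that p, namely Sdhb, the iron-sulfur subunit of succinate dehydrogenase (-0.62 ± 0.29), Sdhc and Cycs, the cytochrome c electron carrier. Uqcrh and Uqcr11, small subunits of complex III, were the 2 members above 0, at 0.09 and 0.02. Complex IV (median 0.02 over 11 genes) and the ATP synthase (-0.09 over 16) lay near the median of all genes. The 2 most abundant subunits of complex I stood above 0, Ndufa1 at 0.20 and Ndufa3 at 0.22. So did those of the ATP synthase, Atp5b at 0.22 and Atp5e at 0.29, and none of them was at an unadjusted p under 0.05. The mitochondrial ribosome had a median of -0.24 over 47 large-subunit genes, with 41 below 0 and 2 lower at an unadjusted p under 0.05. Over 29 small-subunit genes the median was -0.22, with 24 below 0 and 2 lower at that p. The large and small subunits of the cytosolic ribosome had medians of -0.01 and -0.08. Mrpl42, a protein of the large mitochondrial subunit, had 3.50 to 6.09 CPM at 100 mg/kg and 1.66 to 5.08 CPM at 200 mg/kg (-0.63 ± 0.25). Prdx3, the mitochondrial peroxiredoxin that removes hydrogen peroxide, had 11.3 to 16.1 CPM at 100 mg/kg and 9.06 to 11.6 CPM at 200 mg/kg (log2 fold change -0.33 ± 0.12). Only mouse 38 at 100 mg/kg fell within the 200 mg/kg range.

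Mice 37, 39 and 41 held the 3 highest levels of the mitochondrially encoded and of the complex II and III genes. The class level, the mean log2(CPM + 1) over members, was 5.78, 6.47 and 5.45 for the mitochondrially encoded subunits in mice 37, 39 and 41, against 5.00, 5.24 and 5.19 in mice 38, 40 and 42 and 4.69 to 5.40 at 200 mg/kg. For nuclear complexes II and III it was 4.20, 4.58 and 4.01 in mice 37, 39 and 41 and 3.31 to 3.46 in the other 3, against 3.26 to 3.90 at 200 mg/kg. Mice 37, 39 and 41 were also the 3 mice of that group with Alb above 1 CPM. The adipocyte level was 1.49, 4.93 and 3.80 in these mice, but 2.20 in mouse 38, above mouse 37. Mouse 43 had a hepatocyte level of 5.13, next to the 6.80 of mouse 37. Its level of the mitochondrially encoded subunits was the lowest of all 12 mice (4.69). Its levels of nuclear complexes II and III (3.90) and of nuclear complex I (3.02) were the highest of the 200 mg/kg group. In the 6 odd-numbered mice the median of the mitochondrially encoded subunits was -1.70 and in the 6 even-numbered mice -0.02, and for the mitochondrial transfer RNAs it was -1.91 and -0.19. Without mice 37, 39, 41 and 43 it was -0.12 and -0.49. Nuclear complex I stood at -0.69 in the odd-numbered and 0.01 in the even-numbered mice, and complexes II and III at -0.95, with 11 of 14 genes lower at an unadjusted p under 0.05, and 0.06. mt-Th was the only mitochondrially encoded gene lower at that p in the even-numbered mice (-1.26). Over all genes 2.37% were lower and 0.888% higher at that p in the odd-numbered mice, and 1.31% and 1.6% in the even-numbered mice. The part of liver and fat RNA in these classes was not tested. Leaving out mouse 39 alone moved the median of the subunits to -0.58, that of nuclear complex I to -0.17 and that of complexes II and III to -0.26. With odd or even number as a term of the fit of 12 mice, the median of the subunits was -0.77. Each group held 3 odd-numbered and 3 even-numbered mice, so this term could move the step only little. It does not model a step that differs between odd and even numbers.

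**Figure D2:**
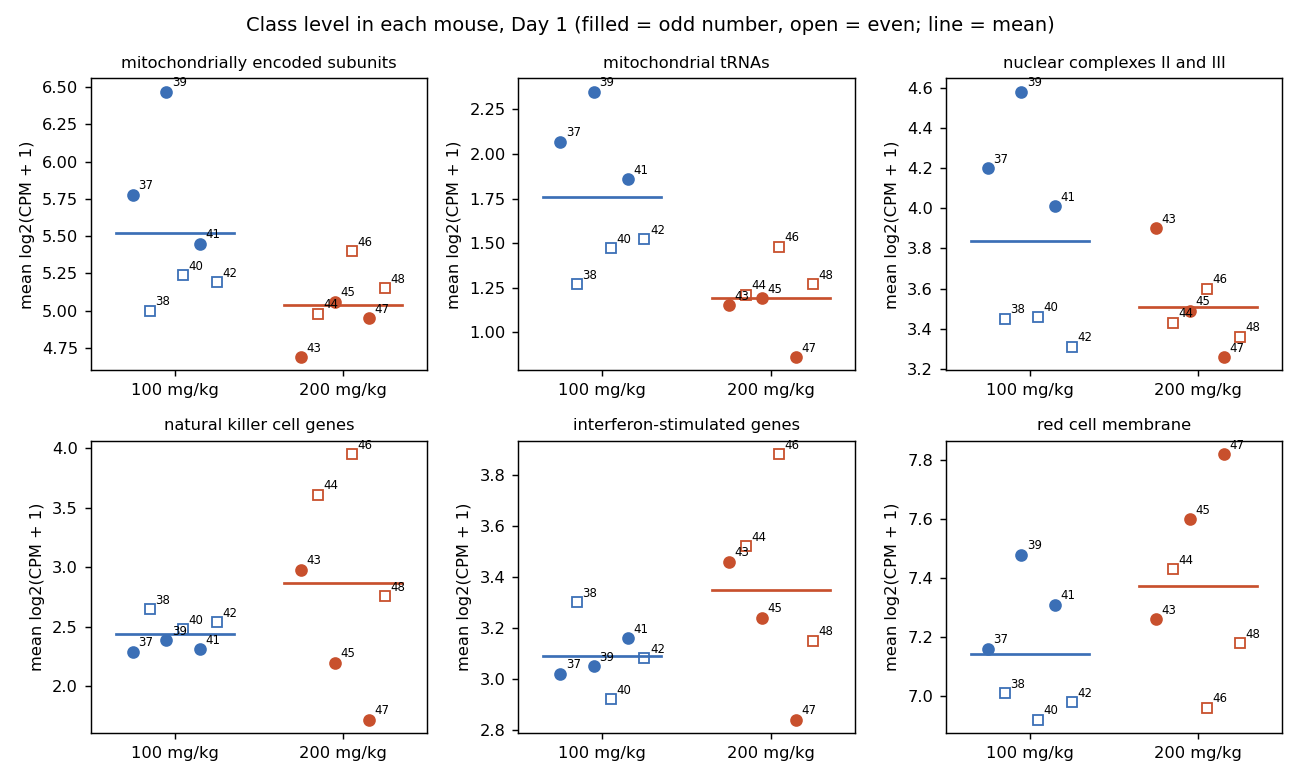
Class level, the mean log2(CPM + 1) over members, of 6 gene classes in each of the 12 mice, by dose on the horizontal axis, with animal numbers beside the points, odd numbers filled, even numbers open and the group mean as a line. Mice 37, 39 and 41 stand above the other mice for the mitochondrially encoded subunits at 100 mg/kg, and mice 44 and 46 have the 2 highest levels of the natural killer cell genes.

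On Day 0 the mitochondrially encoded classes had medians near 0. edgeR called 0 of 23665 genes (0%) there, with 1197 (5.06%) at an unadjusted p under 0.05, and DESeq2 called 0 with 1190. The mitochondrially encoded subunits had a median of 0.10, with 10 of 12 above 0 (49.8% of all genes) and 0 at an unadjusted p under 0.05, and the transfer RNAs 0.09 over 17 genes. Nuclear classes stood higher there, with a median of 0.10 for complex I (25 of 36 genes above 0 and 8 higher at that p, against 2.43% of all genes), 0.09 for complexes II and III (2 of 14 higher at that p), 0.35 for complex IV (all 11 above 0 and 3 higher at that p) and 0.18 for the ATP synthase (12 of 16 above 0 and 5 higher at that p). The test of the difference between the days, the interaction of dose step and day over 24 mice, called 0 of 24958 genes (0%), with 1536 (6.15%) at an unadjusted p under 0.05, and its smallest adjusted p was 0.266. That p belonged to Prdx3, whose step was 0.43 ± 0.11 on Day 0 (edgeR adjusted p = 0.84) and whose interaction was -0.80 ± 0.15. Of the mitochondrially encoded subunits 8 were lower in the interaction at an unadjusted p under 0.05, of the transfer RNAs 8, of nuclear complex I 14 and of complexes II and III 7, against 3.64% of all genes. The counts of the nuclear classes draw on their values above 0 on Day 0 as well as on those below 0 on Day 1. The Day 0 and interaction values here and below rest on TMM scaling. On total counts the Day 0 median over all genes was -0.37, against -0.00 with TMM. The Day 0 split at an unadjusted p under 0.05 was then 211 higher and 998 lower, against 575 and 622. In the interaction the median moved from -0.09 to 0.18 and the split from 628 higher and 908 lower to 756 and 565.

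Against the vehicle, the fold changes of mitochondrial transcripts at 200 mg/kg lay below those at 100 mg/kg. The median log2 fold change of the mitochondrially encoded subunits was -0.56 at 50, 2.25 at 100 and 1.21 at 200 mg/kg, and that of the transfer RNAs -0.48, 2.32 and 1.17. mt-Nd1 stood at 1.86 for 100 mg/kg (edgeR adjusted p = 4.12e-06) and at 0.90 for 200 mg/kg (edgeR adjusted p = 0.00694), while mt-Co1 was at 2.33 and 2.22 (edgeR adjusted p = 8.14e-09 and 1.64e-08). On total counts the subunits had medians of 0.81 at 100 and -0.30 at 200 mg/kg and the transfer RNAs 0.87 and -0.29, so at 200 mg/kg their side of 0 depended on the scaling. mt-Nd1 was then at 0.41 and -0.60 and mt-Co1 at 0.90 and 0.69. These comparisons share the vehicle mice, so their values are given side by side only.

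**Figure D3:**
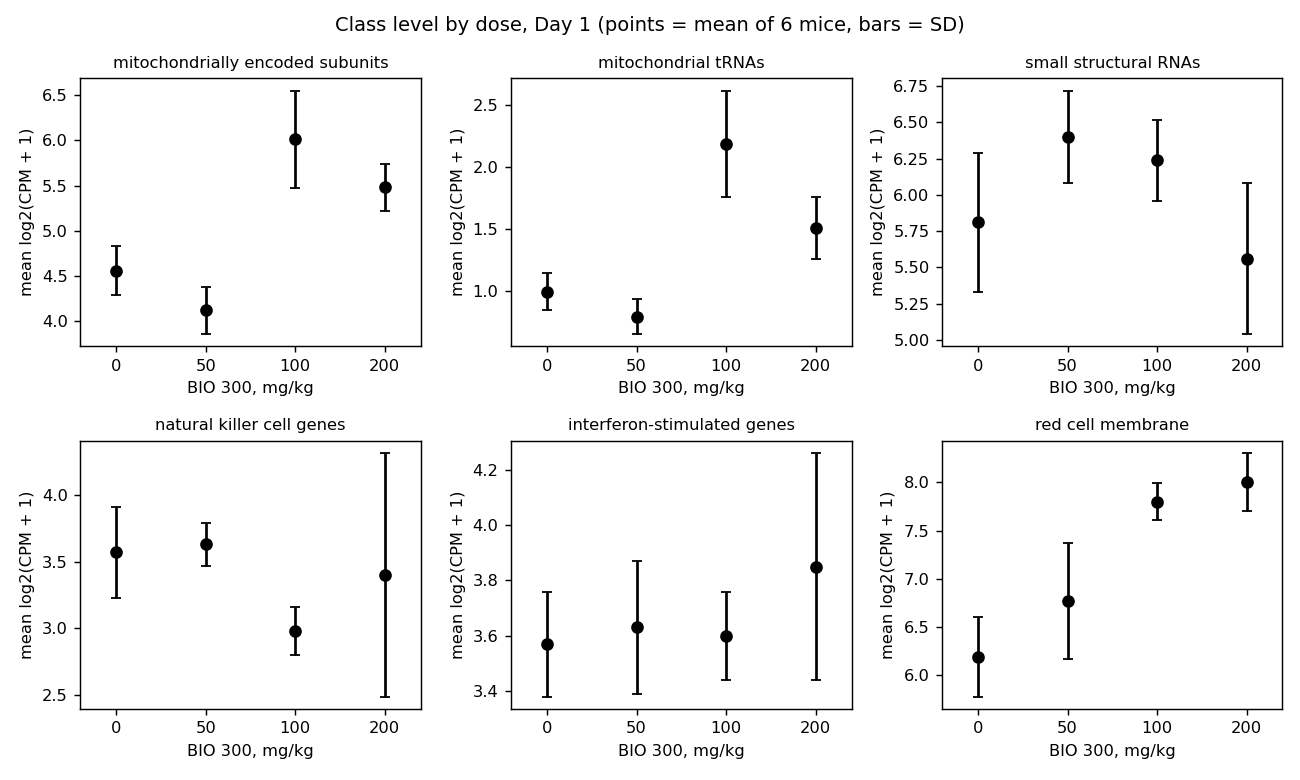
Class level (mean log2(CPM + 1) over members, on the TMM scale of the 24 Day 1 mice) of 6 gene classes by dose of BIO 300 in mg/kg, with points for the mean and bars for the SD of 6 mice. The mitochondrially encoded subunits stood at 4.56, 4.12, 6.01 and 5.48 at 0, 50, 100 and 200 mg/kg, and the natural killer cell genes had an SD of 0.91 at 200 mg/kg against 0.18 at 100 mg/kg.

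Of the genes that averaged 10 CPM or more in either group, Rn7sk and Rmrp had the smallest p on the lower side, and both are noncoding RNAs made by RNA polymerase III. Rn7sk codes for 7SK, the RNA that holds the elongation factor P-TEFb inactive, and Rmrp for the RNA of RNase MRP, which processes ribosomal RNA. The first 120 bases of Rn7sk and the whole of Rmrp are shown since neither codes for a protein, from the GENCODE transcripts on GRCm38, on the minus strand of chr9:78175514-78175633 and of chr4:43492788-43493058. In Rn7sk the capitals mark 3 GATC stretches, a motif that in the 5′ hairpin binds the HEXIM proteins, and Rmrp is shown without capitals.
Rn7sk: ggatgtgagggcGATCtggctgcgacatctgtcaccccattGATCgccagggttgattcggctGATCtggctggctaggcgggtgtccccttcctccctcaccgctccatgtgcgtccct
Rmrp: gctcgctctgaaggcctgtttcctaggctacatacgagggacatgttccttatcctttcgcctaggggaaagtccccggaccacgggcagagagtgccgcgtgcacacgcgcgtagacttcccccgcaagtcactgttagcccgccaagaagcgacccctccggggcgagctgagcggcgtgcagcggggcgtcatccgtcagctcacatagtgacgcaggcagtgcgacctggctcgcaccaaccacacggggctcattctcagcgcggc
Rn7sk had 685, 1127, 1165.5, 928, 998 and 680.1 CPM in mice 37 to 42 and 511, 493, 624.5, 441, 699 and 251 CPM in mice 43 to 48. Only mouse 47 at 200 mg/kg lay above the lowest mice at 100 mg/kg, and mouse 48 was the lowest of all. The log2 fold change was -0.89 ± 0.23 (DESeq2 adjusted p = 0.298). Rmrp had 41.7, 105, 57.8, 73.5, 42.2 and 42.6 CPM at 100 mg/kg and 19.8, 39.7, 41.2, 33.1, 22.1 and 32.5 CPM at 200 mg/kg. The groups did not overlap, as was the case for 17 genes lower (0.0852%) and 11 higher (0.0552%) over all genes tested, though the gap between mouse 37 and mouse 45 was under 1 CPM. Its log2 fold change was -0.95 ± 0.25 (DESeq2 adjusted p = 0.432).

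Rn7sk and Rmrp belong to a class of 7 small structural RNAs, all with a log2 fold change below 0 and with a median of -0.62. The other 5 stood between -0.69 and -0.06, with 0 at an unadjusted p under 0.05. They are Rpph1, the telomerase RNA Terc and 3 near-identical copies of the signal recognition particle RNA, Rn7s1, Rn7s2 and Rn7s6, whose reads cannot be assigned with certainty. Rpph1, the RNA of RNase P, ranged from 1231 to 3077 CPM at 100 mg/kg and from 757 to 1782 CPM at 200 mg/kg (-0.47 ± 0.25). Rny1, a Y RNA bound by the Ro autoantigen, stood at -0.88 ± 0.30. Among 150 listed small nucleolar and Cajal body RNAs 39 were tested, 23 of them below 0 with a median of -0.37, and 9 were lower and 0 higher at an unadjusted p under 0.05, against 2.07% and 1.56% of all genes. Only 7 of the 39 averaged at least 10 counts. Over all 93 tested genes annotated as snoRNA, named or not, the median was 0.02, with 13 lower and 6 higher at that p. Snord17, which guides methylation of ribosomal RNA, had 1.26 to 9.43 CPM at 100 mg/kg and 0.430 to 4.22 CPM at 200 mg/kg (-1.81 ± 0.57), and Scarna10 stood at -1.10 ± 0.41. Both were named after their values were seen. In contrast to the mitochondrial classes, the 7 small structural RNAs, Rn7sk and Rmrp included, stood lower in the even-numbered mice, with a median of -0.93 and 6 of 7 at an unadjusted p under 0.05, than in the odd-numbered mice (-0.55), and the median was -0.47 without mice 37, 39, 41 and 43 and -0.41 without mouse 43 alone. Over all genes 1.31% were lower at that p in the even-numbered mice. On Day 0 the median of the 7 RNAs was 0.16. The interaction was -1.08 ± 0.43 for Rn7sk and -1.13 ± 0.40 for Rmrp (edgeR adjusted p = 0.789 for both). Against the vehicle Rn7sk stood at -0.06 at 50 mg/kg, -1.34 at 100 mg/kg and -2.26 at 200 mg/kg, with edgeR adjusted p-values of 3.25e-05 and 2.38e-08 at the upper 2 doses. Rmrp stood at 0.08, -1.18 and -2.15. On total counts Rn7sk was at -2.79 and -3.86 and Rmrp at -2.58 and -3.71 at the upper 2 doses. Rn7sk and Rmrp do not stand for the class here. The median of the 7 RNAs against the vehicle was 0.53 at 50, 0.18 at 100 and -0.32 at 200 mg/kg. On total counts that median was -1.23 at 100 and -1.93 at 200 mg/kg. These RNAs have no poly(A) tail, and the part of the library method in their values was not tested.

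**Figure D4:**
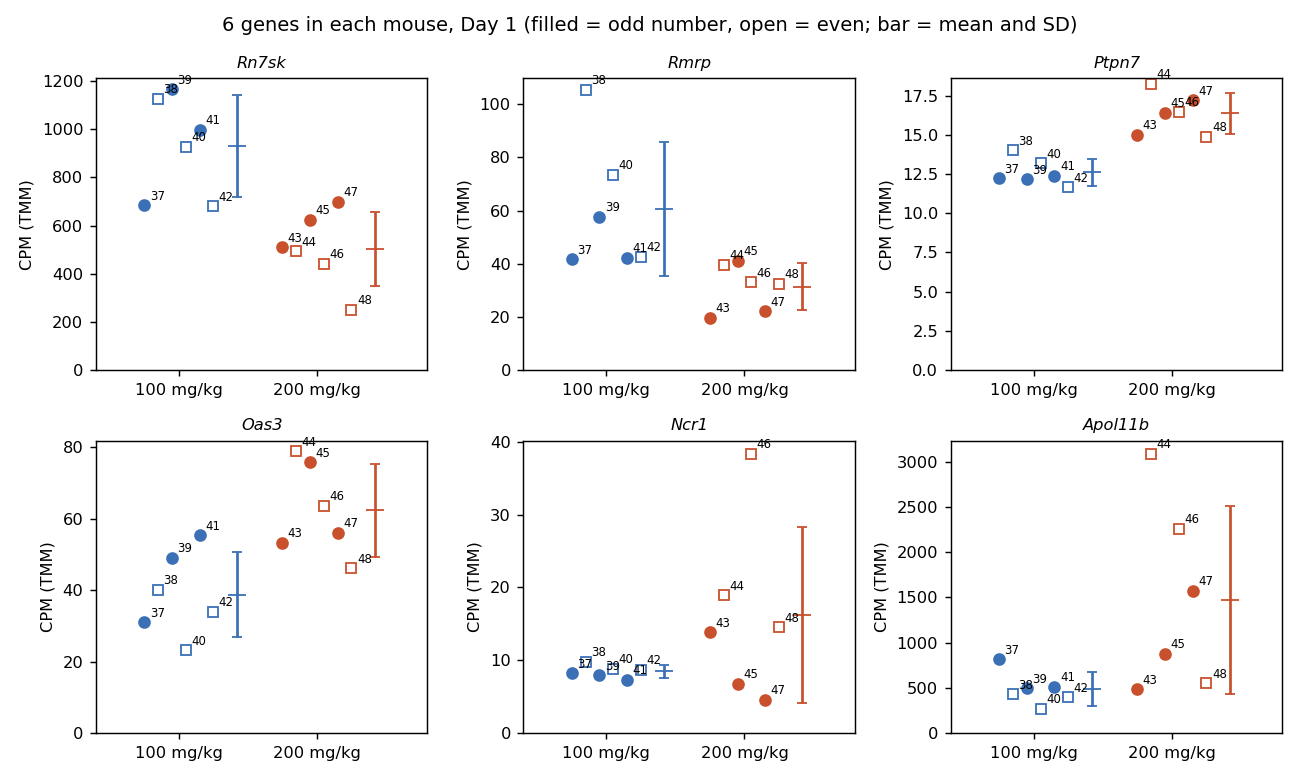
CPM on the TMM scale of 6 genes in each of the 12 mice, by dose on the horizontal axis, with animal numbers beside the points, odd numbers filled, even numbers open, and the mean and SD of 6 mice at the side. Rmrp and Ptpn7 do not overlap between the doses, and mice 44 and 46 are the 2 highest of all 12 for Ncr1 and Apol11b.

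Interferon-stimulated genes lay mostly above 0 in the step. Of 22 listed genes 20 had a log2 fold change above 0, with a median of 0.39, and 4 were higher and 0 lower at an unadjusted p under 0.05, against 1.56% of all genes higher. These 4 were Isg15, a ubiquitin-like modifier, Rsad2 (viperin, an antiviral enzyme), Ifit1, which binds foreign RNA, and Ifih1, the RNA sensor MDA5. Oas3, Gbp7, Xaf1, Irgm2 and Apol11b, the first 4 known interferon-induced genes outside the list, stood among the 12 genes with the smallest p on the higher side. The stretches before the start sites of 7 of these genes are shown because they hold a pair of GAAA stretches 2 bases apart, or the reverse complement, a spacing found in sites of interferon regulatory factors, with the match in capitals. This motif was found within the 250 bases before the start in 9 of the 18 promoters (50%) of the 16 listed interferon-stimulated genes that had an entry, and in 978 of all 32851 promoters (2.98%). Each stretch is read 5′ to 3′ on the gene's strand, from RefSeq on GRCm38.p6. They lie at chr4:156200856-156200915 on the minus strand (Isg15, with 3 overlapping matches of which the middle is marked), chr5:120777700-120777759 on the minus strand (Oas3), chr12:26456538-26456597 on the minus strand (Rsad2), chr19:34640760-34640819 on the plus strand (Ifit1), chr3:142530258-142530317 on the plus strand (Gbp7), chr11:58214888-58214947 on the plus strand (Irgm2) and chr15:77643302-77643361 on the minus strand (Apol11b).
Isg15: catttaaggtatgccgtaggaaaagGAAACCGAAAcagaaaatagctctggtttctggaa
Oas3: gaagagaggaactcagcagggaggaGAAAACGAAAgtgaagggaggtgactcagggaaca
Rsad2: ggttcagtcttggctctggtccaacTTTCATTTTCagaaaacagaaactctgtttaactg
Ifit1: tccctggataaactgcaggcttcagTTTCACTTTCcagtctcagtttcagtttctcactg
Gbp7: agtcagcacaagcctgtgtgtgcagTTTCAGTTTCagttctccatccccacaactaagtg
Irgm2: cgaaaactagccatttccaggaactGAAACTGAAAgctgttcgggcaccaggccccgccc
Apol11b: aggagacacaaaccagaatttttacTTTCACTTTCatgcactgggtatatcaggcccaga
Xaf1 and Ifih1 had no match in their windows. A match describes letters and not a bound site.

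Isg15 had 65.7, 49.3, 68.4, 43.9, 87.0 and 58.3 CPM at 100 mg/kg and 74.9, 87.8, 100.2, 83.9, 108 and 67.1 CPM at 200 mg/kg. Every mouse at 200 mg/kg but mouse 48 lay above all mice at 100 mg/kg except mouse 41. The log2 fold change was 0.49 ± 0.17. Rsad2, the most abundant of the list, had 2261 to 3872 CPM at 100 mg/kg (median 2817) and 3198 to 5914 CPM at 200 mg/kg (median 4377), with a log2 fold change of 0.60 ± 0.21. Oas3, which makes the oligoadenylates that activate RNase L, had 23.2 to 55.3 CPM and 46.2 to 79.0 CPM (0.69 ± 0.20). The groups overlapped in all 3. The class level of the 22 listed genes ran from 2.92 to 3.30 at 100 mg/kg. At 200 mg/kg it ran from 2.84 in mouse 47 to 3.88 in mouse 46, a range that encloses that at 100 mg/kg. Gbp7, a guanylate-binding protein, stood at 0.60 ± 0.16, Xaf1, a partner of the apoptosis inhibitor XIAP, at 0.63 ± 0.18, and Irgm2, an immunity-related GTPase, at 0.52 ± 0.14. In the even-numbered mice 21 of the 22 listed genes were above 0 (median 0.49). There 10 were higher at an unadjusted p under 0.05, against 1.6% of all genes. In the odd-numbered mice 0 were higher at that p (median 0.14), and without mice 37, 39, 41 and 43 the median was 0.43. On Day 0 the median was 0.05. The interaction was 0.11 ± 0.49 for Rsad2 and -0.28 ± 0.43 for Isg15 (edgeR adjusted p = 1 and 0.941), so for these 2 genes a difference between the days was not detectable. Against the vehicle, Rsad2 was at 1.64 and 2.21 at 100 and 200 mg/kg (edgeR adjusted p = 0.000139 and 4.18e-06). On total counts it was at 0.25 and 0.70. Rsad2 does not stand for the class here. The median of the 22 listed genes against the vehicle was 0.03 at 100 and 0.12 at 200 mg/kg. On total counts that median was -1.37 at 100 and -1.35 at 200 mg/kg.

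Apol11b, an apolipoprotein L gene of chromosome 15 (chr15:77633946-77643286), had the largest fold change of those 12 genes. It had 818, 431, 491, 267, 513 and 394 CPM at 100 mg/kg and 485, 3087, 878, 2261, 1573 and 547 CPM at 200 mg/kg. Mice 44, 46, 47 and 45 at 200 mg/kg lay above all mice at 100 mg/kg, and mice 43 and 48 within their range. The log2 fold change was 1.60 ± 0.43. On Day 0 its step was 1.47 ± 0.37 (edgeR adjusted p = 0.84), with an interaction of 0.11 ± 0.59 (edgeR adjusted p = 1). Of its neighbours in the same gene cluster, Apol11a stood at 2.07 ± 1.11 and Apol10a at 1.85 ± 0.75 on Day 1, both highest in mouse 44 (52.3 and 7.05 CPM) and named after their values were seen. In the fit of the 6 even-numbered mice edgeR called 2 of 19942 genes (0.01%), Apol11b (2.42 ± 0.40, edgeR adjusted p = 0.0451) and Sgip1, an endocytic adaptor, at -2.01 ± 0.31 (edgeR adjusted p = 0.0339). Sgip1 reached 56.4 CPM in mouse 47 and 16.6 in mouse 43, and its fold change over all 12 mice was 0.20 ± 0.74.

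Natural killer cell genes had the highest median of the leukocyte classes, at 0.77. All 11 genes tested of 12 had a log2 fold change above 0, and 3 were higher at an unadjusted p under 0.05, against 50.8% and 1.56% of all genes. Ncr1, the receptor NKp46 that marks these cells, had 8.25, 9.77, 7.91, 8.81, 7.29 and 8.71 CPM at 100 mg/kg and 13.8, 18.9, 6.77, 38.4, 4.545 and 14.5 CPM at 200 mg/kg. Mice 46 and 44 were the highest of all 12, while mice 45 and 47 lay below every mouse at 100 mg/kg. The log2 fold change was 0.94 ± 0.38. Gzma, granzyme A, ran from 23.7 to 30.1 CPM at 100 mg/kg and from 8.35 to 113 CPM at 200 mg/kg (0.87 ± 0.44). The other 2 genes at an unadjusted p under 0.05 were Gzmb, granzyme B (1.32 ± 0.59), and Nkg7, a cytotoxic granule protein (0.91 ± 0.39). The class level was 2.87 ± 0.84 (SD, n = 6) in the 200 mg/kg group against 2.44 ± 0.14 in the 100 mg/kg group, and its range at 200 mg/kg (1.72 to 3.95) enclosed that at 100 mg/kg (2.29 to 2.65). The median was 1.11 in the even-numbered mice, with 10 of 11 genes higher at an unadjusted p under 0.05, against 1.6% of all genes. It was 0.02 in the odd-numbered mice, and 0.43 without mouse 46 alone. Against the vehicle it stood at -0.76 for 100 mg/kg and 0.04 for 200 mg/kg, and on total counts at -2.16 and -1.43.

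The other leukocyte classes stood closer to the middle. Monocyte genes had a median of 0.32 over 14 genes, 13 of them above 0 and 0 at an unadjusted p under 0.05, with mouse 46 the highest and mouse 47 the lowest of all 12 as for the natural killer cell genes. Without mouse 46 the monocyte median was 0.02. MHC class I genes had a median of 0.23 over 10 genes, all above 0. B cell genes had a median of -0.25 over 14 genes and MHC class II genes of -0.15 over 10, all of them below 0 and none at an unadjusted p under 0.05. Ighd, the IgD heavy chain of naive B cells, had 41.15 to 105.3 CPM at 100 mg/kg and 25.8 to 85.1 CPM at 200 mg/kg (-0.32 ± 0.29). T cell genes (0.02 over 17) and neutrophil genes (-0.02 over 17) had medians next to that of all genes.

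Erythroid classes had medians slightly above 0, by less than the spread between mice. The 4 adult globin genes had a median of 0.14, with class levels of 12.06 to 13.92 in the 100 mg/kg group and 12.04 to 13.79 in the 200 mg/kg group. Hbb-bs, the main adult beta chain, had 136382, 114736, 241176, 146365, 160473 and 129052 CPM at 100 mg/kg and 88938, 113865, 201390.0, 201346, 230794 and 146255 CPM at 200 mg/kg. The lowest and highest mice of each group lay far apart, and the log2 fold change was 0.08 ± 0.50. Alas2, the first enzyme of erythroid heme synthesis, stood at 0.30 ± 0.37. All 20 red cell membrane genes were above 0 (median 0.26), as were all 17 reticulocyte maturation genes (0.25), 10 of 11 red cell enzymes (0.21), 8 of 9 heme synthesis genes (0.18) and 9 of 10 erythroid transcription factors (0.09). Over all genes 50.8% were above 0. Car2, a carbonic anhydrase of red cells, had 304 to 594.5 CPM at 100 mg/kg and 385 to 755 CPM at 200 mg/kg (0.45 ± 0.22). Epb41, protein 4.1 of the membrane skeleton, stood at 0.34 ± 0.26 and Trim58, a ubiquitin ligase of late erythroblasts, at 0.31 ± 0.17. Slc4a1, the band 3 anion exchanger of the red cell membrane, was the only gene of these 6 classes at an unadjusted p under 0.05 (0.52 ± 0.22), at 1393 to 2690.2 CPM against 1740.1 to 3516 CPM. On total counts the medians fell to 0.02 for globins, 0.12 for membrane genes, 0.09 for reticulocyte maturation, 0.06 for enzymes, 0.01 for heme synthesis and -0.06 for transcription factors, and 14 of 20 membrane genes were above 0. With 1 mouse left out, the median of the membrane genes ran from 0.09 without mouse 47 to 0.33 without mouse 46, and that of the globins from 0.00 without mouse 46 to 0.49 without mouse 39. The globin median was -0.20 in the odd-numbered mice, 0.51 in the even-numbered mice and 0.64 without mice 37, 39, 41 and 43. On Day 0 these classes had medians between 0.33 and 0.55. Platelet genes, read beside them, had a median of 0.14 over 20 genes, or -0.00 on total counts.

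Among the other genes with the smallest p, Ptpn7, a phosphatase of leukocyte MAP kinases, had 11.7 to 14.0 CPM at 100 mg/kg and 14.9 to 18.3 CPM at 200 mg/kg, with no overlap between the groups. Its log2 fold change was 0.38 ± 0.10, and it stood at 0.33 in the odd-numbered and 0.34 in the even-numbered mice. Gltp, a glycolipid transfer protein, stood at 0.46 ± 0.12, Ctsb, the lysosomal protease cathepsin B, at 0.56 ± 0.19, the predicted gene Gm4070 at 0.93 ± 0.28 and the palmitoyltransferase Zdhhc21 at 0.34 ± 0.12. On the lower side stood Mtus1 at -0.34 ± 0.12, the ubiquitin-conjugating enzyme Ube2w at -0.40 ± 0.15 and Plin2, which coats lipid droplets, at -0.77 ± 0.28. Plin2 was highest in mice 39 (20.8 CPM) and 37 (14.3) and stood at -0.05 in the even-numbered mice.

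Classes tied to known targets of genistein had medians near that of all genes. Their median was 0.08 over 15 estrogen receptor genes and targets, -0.11 over 9 genes of the aryl hydrocarbon receptor and 0.05 over 21 antioxidant genes of the Nrf2 pathway. At an unadjusted p under 0.05 these held 1 of 15, 2 of 9 and 1 of 21 genes, against 3.64% of all genes. In classes this small a single gene is enough to exceed that share, so the counts show no excess. Of the 2 aryl hydrocarbon receptor genes 1 was higher and 1 lower, and the antioxidant gene was Prdx3. Their members ran from -1.16 to 2.54, from -4.50 to 0.41 and from -0.33 to 0.41. Over the 30 gene classes with no fold change given above, these 3 and the cytosolic ribosome included, the medians lay between -0.30 for collagens and 0.67 for the 4 embryonic globins, all at or under 1.99 CPM in every mouse.

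**Figure D5:**
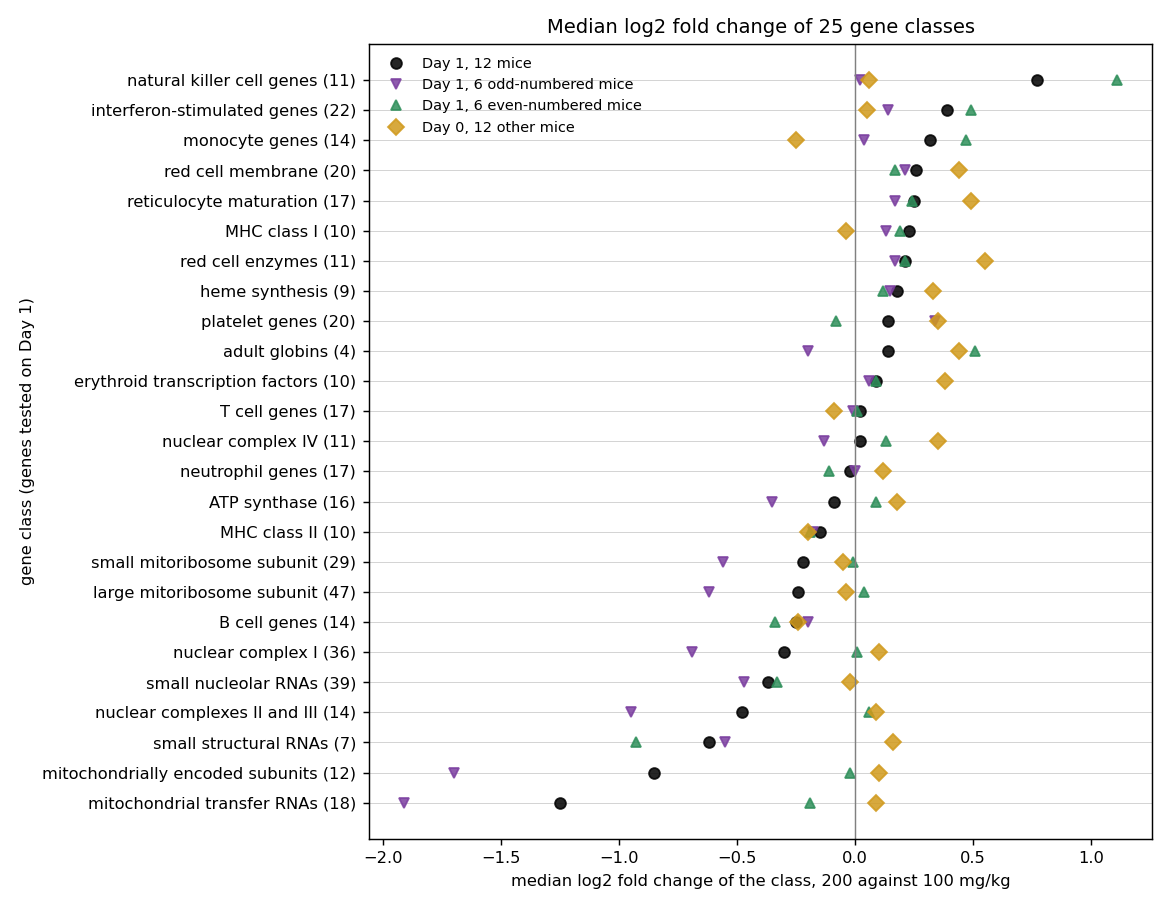
Median log2 fold change of 25 gene classes for 200 against 100 mg/kg, with the number of genes tested in brackets, in 12 Day 1 mice (black), the 6 odd-numbered (purple) and 6 even-numbered (green) Day 1 mice, and 12 other mice on Day 0 (yellow). The mitochondrially encoded subunits lie at -1.70 in the odd-numbered mice, -0.02 in the even-numbered mice and 0.10 on Day 0, complex IV reaches 0.35 on Day 0, and the natural killer cell genes reach 1.11 in the even-numbered mice.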

How the data were processed

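Whole blood RNA of 12 Day 1 mice was compared, with 12 Day 0 mice of the same doses and 12 Day 1 mice given vehicle or 50 mg/kg for reference. Per the submitters' processing notes, reads were handled with Trimmomatic 0.36, STAR 2.5.2b and Subread 1.5.2 on GRCm38. The authors deposited unnormalized gene counts, and their tables of fold changes and p-values were not used. Each mouse's column was matched to its label by animal number, and columns repeated across tables were identical. No pair of libraries within a group agreed within sampling noise by chi-square.

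Genes with at least 10 counts summed over the mice of a fit were tested with edgeR 4.0.16 (quasi-likelihood, TMM, Benjamini-Hochberg) in R 4.3.3. DESeq2 1.42.0 and limma 3.58.1 (voom with sample quality weights), other scalings and filters, and leaving out each mouse were alternatives. Calls needed an adjusted p under 0.05 with a log2 fold change beyond 1 either way. The standard error is the fold change divided by the square root of F. CPM are on the TMM scale, and class levels are means of log2(CPM + 1). Scripts were tested on simulated counts. Depth, genes detected and TMM factors were compared by 2-sided exact permutation tests over 924 arrangements. Precision rests on 6 mice per group, each 1 library, and on the depth given above.

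Gene classes (58) have no test and are given as counts and medians beside those over all genes. The members and lists were chosen with earlier results of these data known. Genes were named by a rule: per direction the 12 with the smallest p at a mean of at least 10 CPM in a group, and per class the 2 most abundant members and the 1 with the smallest p. Genes outside this rule (the remaining mitochondrial, snoRNA and apolipoprotein L genes, Sdhb, Sdhc, Ifit1, Ifih1, Gzmb, Nkg7 and Sgip1) were chosen after their values were seen. Coordinates are GENCODE vM21 and RefSeq on GRCm38.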

Additional observations from a re-analysis of the deposited data

Results flagged for a closer look

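In 172 checks of a group of 6 mice, over the class levels and genes described above, 5 values stood apart from the other 5 mice by more than Dixon's limit at 95%. Chance gives about 1 in 20 such checks. The class level of the platelet genes was 9.92 in mouse 42 at 100 mg/kg, against 8.90 to 9.26 in the other 5, and Atp5e was at 133 CPM in the same mouse, against 62.2 to 74.8. Apol11a was at 17.1 CPM and Apol10a at 1.945 CPM in mouse 37, against 0.433 to 1.08 and 0.269 to 0.536 CPM in the other 5 mice at 100 mg/kg. mt-Nd4 was at 176 CPM in mouse 43 at 200 mg/kg, against 262 to 319 CPM in the other 5. The cause of these values was not tested.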

How the results depend on the processing

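No paired analysis was possible because the animal numbers are not shared between the groups. Counting genes called in the Day 1 step, total counts, RLE or upper-quartile scaling, no filter, filterByExpr, DESeq2, limma-voom and leaving out each mouse each gave 0, and a fit of all 4 Day 1 groups gave 1, Gm44110 (5.73 ± 0.86, edgeR adjusted p = 0.0412). At an unadjusted p under 0.05 these counts were 1351 without a filter, 346 with filterByExpr, 1778 with 4 groups, and 569 to 1527 with a mouse left out, most without mouse 43. On Day 0 leaving out a mouse gave 776 to 2826. In the interaction leaving out a mouse gave 0 to 1 called gene, Galnt6os without mouse 43 (-6.03, edgeR adjusted p = 0.0409) and Celf3 without mouse 46 (-4.11, edgeR adjusted p = 0.00388). For 27 of the classes the median was also computed with total counts, RLE and upper-quartile scaling, DESeq2 and each mouse left out. None of these moved a class median by more than the spread between mice. That spread was 5.21 for the hepatocyte genes, whose median ran from -5.16 to 1.82 with a mouse left out.

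The splits by animal number and the fits without some of the mice with liver transcripts (37 and 39, or 37, 39, 41 and 43, but with mouse 45) were chosen after the data were seen. In the even-numbered mice 2 genes were called. With odd-numbered mice alone the medians were -1.70 for the mitochondrially encoded subunits, -1.91 for mitochondrial transfer RNAs, -0.69 for nuclear complex I, -0.95 for complexes II and III, -0.35 for the ATP synthase, -0.62 and -0.56 for the large and small mitoribosome subunits, and 0.02 for natural killer cell genes. With even-numbered mice alone they were -0.02 for the subunits, -0.19 for the transfer RNAs and 0.06 for complexes II and III. Without mice 37, 39, 41 and 43 they were -0.12, -0.49 and -0.00 for these 3, 0.27 for complex IV and 5.45 for hepatocyte genes, which were at 5.29 without mice 37 and 39.

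Some named genes changed sign. In even-numbered mice mt-Co1 was at 0.23, mt-Nd6 at 0.33, mt-Tp at 0.09, mt-Tl1 at 0.35 and Sdhb at 0.06. Without mice 37 and 39 mt-Co1 was at 0.11 and mt-Tp at 0.12, and without 4 mice mt-Co1 was at 0.32, mt-Nd6 at 0.19, mt-Tp at 0.36 and mt-Tl1 at 0.13. In odd-numbered mice Hbb-bs was at -0.11, Gzma at -0.26, Gzmb at -0.49 and Uqcr11 at -0.09. On total counts Hbb-bs was at -0.08, Uqcrh at -0.07 and Uqcr11 at -0.13. With a mouse left out Hbb-bs ran from -0.05 to 0.24, Uqcrh from -0.04 to 0.18 and Uqcr11 from -0.06 to 0.07. The causes were not tested. With 6 mice per group and this spread, a small change in a gene was not detectable.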
